A study of Mus musculus with 2 samples.

Results

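Mucin-positive tumour cells were studied within mouse pancreatic tumours, as the cells whose RNA carried the secreted gel-forming mucins Muc5ac and Muc5b. They were chosen from single-cell counts by a rule on unique molecular identifiers (UMIs), each of which stands for 1 captured RNA molecule. A cell needed 500 or more detected genes, no more than 15% of its UMIs from mitochondria, at least 10 UMIs of Krt8, Krt18, Krt19 and Cdkn2a together, none of Ptprc or Pdgfra, and fewer than 50 of the acinar genes Ctrb1, Prss2, Try4 and Clps. It also had to carry fewer than 5 UMIs of the cycling genes Mki67 and Top2a, fewer than 10 of the intestinal genes Lgals4, Rbp2, Spink4 and Dmbt1, and at least 10 of Muc5ac and Muc5b. Of 26017 barcodes in both libraries, 3608 met the rule. The comparison cells, called other tumour cells below, were the 7973 that met every limit but held fewer than 10 mucin UMIs.

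The tumours grew for 21 days in the pancreas from implanted KPC cells, a mouse pancreatic cancer line. The control mice were littermates of genotype Porcnfl/fl (WT) and the others were Csf1r-Cre;Porcnfl/fl (KO). Both groups carried the floxed Porcn alleles, and Cre under Csf1r acts in macrophages and related myeloid cells, so the implanted tumour cells were not the target of the deletion. Tumours of 5 mice were pooled into 1 library per genotype, so the spread between mice is unknown and nothing could be tested between genotypes.

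Porcn encodes the enzyme that attaches a lipid to Wnt proteins, without which they are not secreted. In the stomach, Muc5ac is the mucin of the surface pit cells, which also make gastrokines and trefoil factors, while Muc6 belongs to the deeper gland cells. Muc5b is best known from airway and salivary glands. Pancreatic tumours and their precursors often take on features of gastric pit cells, and such features are among those that mark the classical type of the disease, in contrast to the basal type.

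The control library held 2165 mucin-positive cells, which was 25.4% of its 8528 gated tumour cells (95% exact interval 24.5 to 26.3). The knockout library held 1443, which was 27.6% of 5221 (26.4 to 28.9). The ratio of these shares was 1.09 (1.02 to 1.16), an interval that covers counting error only. The mucin threshold is a raw count, and the mucin-positive cells had a median of 14527 UMIs in the control and 15874 in the knockout library. With the threshold set at 10 mucin UMIs per 10000 UMIs the ratio was 1.04 (0.964 to 1.12), and with every cell thinned to 5000 UMIs before the rule it was 0.987 (0.907 to 1.07). Under both of these settings the interval of the ratio held 1.

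The values just below and just above the threshold are given here as a description. In the control library, Vsig1 stood at 384 CPM (UMIs scaled to a total of 1000000 in each group) in the 188 cells with 8 or 9 mucin UMIs and at 383 CPM in the 165 cells with 10 or 11. In the knockout library it stood at 428 CPM in 112 cells and at 373 CPM in 109 cells. Gkn2 differed more, at 47.1 CPM outside and 3.70 CPM inside in the control library, but at 5.66 and 5.05 CPM in the knockout library. Its UMIs lay in few cells, and over all other tumour cells of the control library the 10 highest cells held 71.8% of them. Inhba, an activin subunit, stood at 24.5 CPM outside and 55.5 CPM inside in the control library, and at 18.7 and 15.1 CPM in the knockout library.

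Muc5ac (ENSMUSG00000037974, chromosome 7, 141788972 to 141819231 on GRCm38, plus strand) lies next to Muc5b (ENSMUSG00000066108, 141839070 to 141873084, plus strand). Muc2 and Muc6 lie beside them in the same cluster. Gkn1 and Gkn2, which encode the gastrokines of the stomach surface, are neighbours on chromosome 6, and Vsig1, a junctional adhesion protein of stomach epithelium, lies on the X chromosome. The upstream sequences of these last 3 are shown because the rule used none of them and they are gastric genes on which the label of the cells turns. Each run is 223 bases, 5′ to 3′ on the gene's strand, from 250 to 28 bases before the RefSeq start on GRCm38.p6, with matches on either strand in capitals. The motifs searched were AGATAA for GATA factors and, for forkhead factors, TGTTTAC and, as a further form, the letters TATTTAC, and no matches overlap in these runs.
Gkn2, chr6:87373115-87373337, plus strand: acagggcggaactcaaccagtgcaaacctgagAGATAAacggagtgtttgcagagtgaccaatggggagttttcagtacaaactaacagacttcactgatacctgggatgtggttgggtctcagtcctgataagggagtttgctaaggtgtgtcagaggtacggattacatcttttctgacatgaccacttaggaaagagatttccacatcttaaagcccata
Gkn1, chr6:87350943-87351165, minus strand: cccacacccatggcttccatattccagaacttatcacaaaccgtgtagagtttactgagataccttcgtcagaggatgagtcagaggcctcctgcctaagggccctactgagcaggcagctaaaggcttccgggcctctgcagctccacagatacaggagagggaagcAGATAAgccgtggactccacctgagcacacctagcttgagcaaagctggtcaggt
Vsig1, chrX:140907358-140907580, plus strand: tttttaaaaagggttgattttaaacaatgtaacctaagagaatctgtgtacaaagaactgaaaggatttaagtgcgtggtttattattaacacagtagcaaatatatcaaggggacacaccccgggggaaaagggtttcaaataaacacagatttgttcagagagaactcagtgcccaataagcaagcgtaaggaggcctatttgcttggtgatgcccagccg
Gkn2 held 1 AGATAA, whose first base lies 218 bases before the start, and Gkn1 held 1 at 82 bases. Vsig1 held none of the 3 motifs, and no forkhead motif was in any of these runs. Over 32851 RefSeq promoters cut to the same window, 9.15% held AGATAA and 5.22% held either forkhead motif, so a match is a description of the letters only. Promoters of Muc5ac, Muc5b and Fut2 are not shown here.

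Muc5b was the commoner of the mucins in these cells. A Muc5b UMI was found in 97.5% of the mucin-positive cells of the control library and 97.3% of the knockout library, and a Muc5ac UMI in 61.8% and 60.5%. The median cell held 20 Muc5b UMIs in either library, but 2 Muc5ac UMIs in the control and 1 in the knockout library, with a highest value of 431 and 428. Muc5ac was thus concentrated in a minority of cells that carried a great deal of it.

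Split at 10 UMIs of each mucin, 1390 control cells (64.2%, interval 62.1 to 66.2) were Muc5b-leaning, with fewer than 10 Muc5ac UMIs. A further 270 (12.5%, 11.1 to 13.9) were Muc5ac-leaning, with fewer than 10 Muc5b UMIs, and 425 (19.6%, 17.98 to 21.4) held both. In the knockout library the shares were 64.7% (62.2 to 67.2), 12.8% (11.1 to 14.6) and 18.99% (16.99 to 21.1). The plot of both mucins per cell shows the same arms in the 2 libraries, and each pair of intervals overlaps. The rule admits no cell low in both mucins, so the arms are partly set by it. Among mucin-positive cells the rank correlation of the mucins, each as a share of the cell's UMIs, was -0.26 in the control and -0.31 in the knockout library. Over all tumour cells within the same limits, whatever their mucin count, it was 0.39 and 0.41.

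**Figure D1:**
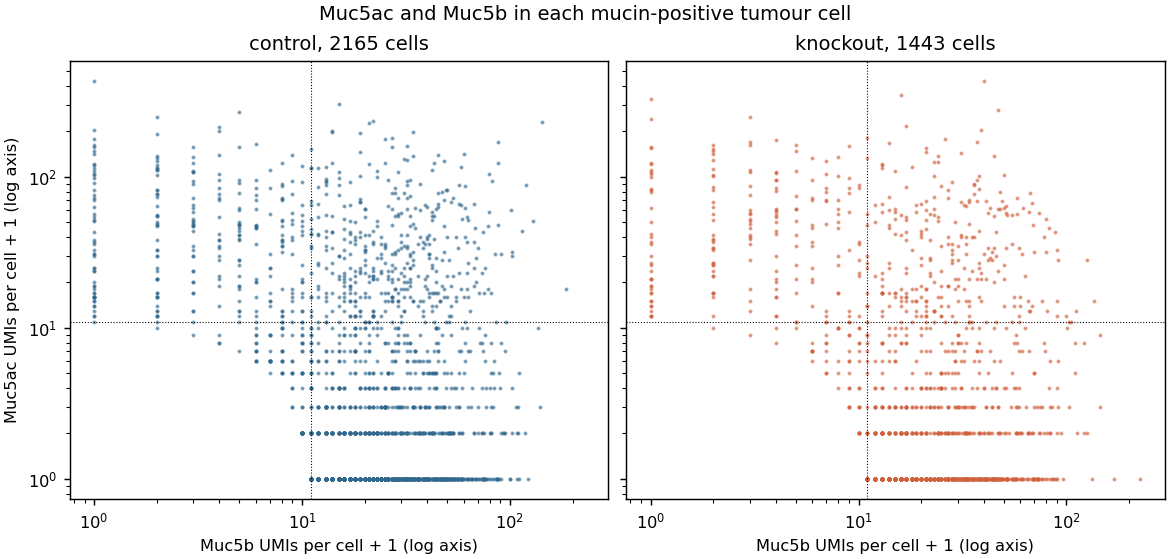
Muc5b against Muc5ac UMIs (each plus 1, log axes) in every mucin-positive tumour cell, 2165 in the control and 1443 in the knockout library, with dotted lines at 10 UMIs. Most cells lie along the Muc5b axis with few Muc5ac UMIs, and a smaller arm carries Muc5ac with few Muc5b UMIs.

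Whether the cells resemble gastric mucous cells was then asked of genes outside the rule. Vsig1 stood at 461 CPM in the mucin-positive cells of the control library and 462 CPM in those of the knockout library, against 247 and 231 CPM in other tumour cells. Tspan8, a tetraspanin of gastrointestinal epithelium, stood at 1381 and 1443 CPM against 892 and 744 CPM. Both markers were thus higher in the mucin-positive cells of each library, and the log2 ratio of Vsig1 was 0.90 in the control and 1.003 in the knockout library.

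After every cell was thinned to 2000 UMIs, 55.1% of the mucin-positive cells of either library held a Vsig1 UMI. The share was 33.4% and 30.7% in other tumour cells. It was 1.46% in the 411 control leukocytes (chosen by at least 3 Ptprc UMIs, median depth 3646 UMIs before thinning) and 1.31% in the 2068 knockout leukocytes (4020 UMIs), cells that should lack the gene. Before thinning the shares in mucin-positive cells were 94.0% and 95.3%. Both tumour groups thus stood above the share that free RNA leaves in leukocytes.

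Gkn2 was the gastric gene with the widest gap, at 97.0 CPM in the mucin-positive cells of the control library and 111 CPM in those of the knockout library, against 9.20 and 4.47 CPM in other tumour cells. It came from few cells. Only 223 of 2165 control cells (10.3%) and 143 of 1443 knockout cells (9.91%) held a Gkn2 UMI, and the 10 highest cells carried 52.4% and 48.4% of all its UMIs. Gkn1 was rarer still, with a UMI in 3.05% and 3.46% of the cells and a level of 7.40 and 7.05 CPM against 0.836 and 0.429 CPM. Fut2, the fucosyltransferase that builds blood-group sugars on mucins, was spread more widely, with a UMI in 35.3% and 43.6% of the cells, at 41.8 and 55.0 CPM against 8.78 and 8.31 CPM.

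Other defining genes of the gastric mucosa were sparse. Tff1, the trefoil factor of pit cells, stood at 9.59 and 17.4 CPM, with a UMI in 1.52% and 1.04% of the cells. Tff2, the trefoil factor of neck cells, stood at 9.67 and 16.7 CPM. Ctse, a stomach protease, stood at 9.09 and 6.47 CPM, below the 37.4 and 58.0 CPM in leukocytes, where its source was not tested. Muc6 had 5 UMIs in all mucin-positive cells of the control library and 13 in those of the knockout library, Agr2 had 13 and 12, and Psca had 0 and 1. Vsig1, Tspan8 and Fut2 thus went with the label of gastric mucous cells, whereas Gkn2 did so in only 10.3% and 9.91% of the cells. Tff1 was found in fewer cells still, at 1.52% and 1.04% against 1.39% and 0.886% of other tumour cells. Ctse was found in 7.99% and 6.65% against 7.21% and 4.18%. Agr2 and Psca had few or no UMIs. The cells are therefore named here by their mucins. Krt7, a keratin of ducts, stood at 1.15 and 0.306 CPM, and Epcam, a general epithelial adhesion gene, at 3.51 and 0.460 CPM, whereas Cdh1, encoding E-cadherin, stood at 392 and 347 CPM.

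Over the 15 measured gastric pit genes with at least 20 UMIs, the median log2 ratio of mucin-positive over other tumour cells was 0.90 in the control and 1.06 in the knockout library. The interval of the median, from the spread among genes, was -0.12 to 2.25 in the control library, which held 0. In the knockout library it was 0.14 to 2.72. At least 2-fold higher were 6 of 15 in the control library, where 1.45% of all 15457 genes were, and 9 of 15 in the knockout library, where 2.69% of 14915 were. At least 2-fold lower were 1 and 0. The medians over all genes were -0.05 and 0.02. Intestinal genes outside the rule also had medians above 0, at 0.47 and 1.07. The intervals over those genes, -0.26 to 1.21 and -0.79 to 1.67, both held 0. At least 2-fold higher were 3 of 14 and 6 of 10, beside the same shares of all genes. Another 2 and 1 were at least 2-fold lower. The higher genes were thus not gastric ones alone. The genes for neck cells and metaplasia had medians of -1.21 and -0.55, with 8 of 14 and 4 of 13 at least 2-fold lower and 0 and 2 at least 2-fold higher, beside 7.71% and 7.88% of all genes at least 2-fold lower. Some of the neck and pit genes rested in part on single cells. In at least 1 of the groups compared, 1 cell held 90% of the Pigr UMIs, 50% of those of Wfdc2 and 61.4% of those of Tff2. For Clu, which was also lower in both libraries, it was at most 1.46%. Among the pit genes, 1 cell held up to 26.2% of the Gkn2 UMIs of a group, 36.0% of those of Gkn1 and 31.4% of those of Cldn18. For Fut2 it was at most 1.88%. The same cells supplied the mucin counts and these values, so they describe the cells and are no test.

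The gastric genes were not confined to these cells. The gated tumour cells that the rule left out for their intestinal genes numbered 1149 in the control and 299 in the knockout library, and 63.3% and 85.3% of them held at least 10 mucin UMIs. Among the non-cycling ones, Gkn2 stood at 212 and 380.3 CPM, Gkn1 at 44.0 and 134 CPM, Tff1 at 80.1 and 129 CPM and Tff2 at 234 and 492 CPM. These are all above the levels in the mucin-positive cells, although in the knockout library's intestinal-type cells 1 cell held 70.8% of the Gkn1 UMIs, 89.1% of those of Tff2, 55.1% of those of Tff1 and 29.3% of those of Gkn2. The median of the pit genes, mucin-positive over intestinal-type cells, was -1.13 in the control and -2.22 in the knockout library. When all other gated tumour cells were the comparison, these cells included, the pit median in the knockout library fell from 1.06 to -0.48, and Gkn1 was lower in the mucin-positive cells of both libraries. The pit median of the control library was then 0.04. The higher pit genes of the knockout library thus hold against tumour cells low in both mucin and intestinal genes, and not against all other tumour cells. Levels of Vsig1, Tspan8 and Fut2 in intestinal-type cells are not given here, so these genes are not called particular to mucin-positive cells.

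By the rule that named genes, 10 genes were higher and 10 lower than in intestinal-type cells of both libraries. The higher ones included Gli3, a transcription factor of the hedgehog pathway, at 9.70 and 10.3 CPM against 3.67 and 3.83 CPM. The lower ones included Ucp2, a mitochondrial carrier, at 1.32 and 1.91 CPM against 28.5 and 20.1 CPM, Ehf, an epithelial transcription factor, at 4.57 and 1.91 CPM against 33.0 and 21.1 CPM, and Prom1, a membrane protein of many epithelia, at 17.7 and 8.04 CPM against 111 and 42.6 CPM. At least 2-fold higher were 2.09% and 2.42% of all genes, and at least 2-fold lower 3.8% and 3.65%. The genes that differed thus went beyond the 4 intestinal genes of the rule.

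Among the genes furthest above other tumour cells in both libraries, outside the rule, were Syt16, A230057D06Rik, Fut2, Tnr, Aldh1a1, Bcas1, Bace2, Sult1a1, Stc1, Insm1, Gcnt3, Syt7, Kctd14 and Ptpru. Syt16, a synaptotagmin-like protein, stood at 15.4 and 14.2 CPM against 2.05 and 0.995 CPM. Aldh1a1, which makes retinoic acid, stood at 133 and 111 CPM against 32.1 and 21.1 CPM. Insm1, a transcription factor of neuroendocrine cells, stood at 13.3 and 12.6 CPM against 3.60 and 3.57 CPM. Their log2 ratios lay between 1.57 and 3.82 in the 2 libraries, and the rule passed no gene with over 10% of its UMIs in 1 cell.

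Genes for making and secreting mucin were mixed. Gcnt3, which branches the sugar chains of mucins, stood at 35.9 and 34.3 CPM against 9.66 and 10.2 CPM. Bace2, a protease of secretory cells, stood at 71.1 and 84.6 CPM against 18.7 and 17.9 CPM, and Syt7, a calcium sensor of vesicle fusion, at 18.3 and 15.3 CPM against 4.96 and 4.80 CPM. Of the tested genes of the list, 6 of 30 were at least 2-fold higher in the control and 6 of 26 in the knockout library (1.45% and 2.69% of all genes), 3 and 1 were at least 2-fold lower (7.71% and 7.88%), with medians of 0.19 and 0.31. Spdef, a transcription factor of goblet cells, had 3 UMIs in the control cells and 4 in the knockout cells. A few enzymes thus stood well above other tumour cells, and the medians lay somewhat above those of all genes in both libraries. In the control library the interval over the genes, -0.26 to 0.35, held 0, and 13 of 30 genes were below 0. In the knockout library the interval was 0.05 to 0.62, with 7 of 26 below 0. Against all other gated tumour cells the control median was -0.069.

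Genes of the unfolded protein response, which cells with heavy secretion run at a higher level, were above 0 in 23 of 27 and 24 of 27 cases, with medians of 0.21 and 0.34 and none at 2-fold. Herpud1, a component of the degradation machinery of the endoplasmic reticulum, stood at 161 and 131 CPM against 99.6 and 73.0 CPM. Manf, a factor of the same compartment, stood at 395 and 282 CPM against 304 and 191 CPM. Both libraries thus had most of these genes slightly higher in the mucin-positive cells.

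The genes furthest below other tumour cells were Piezo2, Cdh6, Dkk2, Timp3, Inhba, Tgfbi, Fscn1, Thbs1, Tnc and Lamb1, which include matrix and matrix-binding proteins. Piezo2, a mechanically gated channel, stood at 10.99 and 4.94 CPM against 102 and 76.0 CPM. Timp3, an inhibitor of matrix proteases, stood at 27.5 and 15.7 CPM against 176 and 109 CPM. Inhba, the activin A subunit, stood at 29.1 and 12.1 CPM against 181 and 246 CPM. Of the 30 genes for epithelial-mesenchymal transition, 14 were at least 2-fold lower in the control and 12 in the knockout library (7.71% and 7.88% of all genes), with medians of -0.85 and -0.72. Snai1, a repressor of E-cadherin, stood at 1.29 and 0.498 CPM against 5.22 and 3.79 CPM, and Fn1, encoding fibronectin, at 322 and 165 CPM against 959.7 and 584 CPM. Vim, encoding vimentin, was high in all tumour cells, at 4036 and 4438 CPM against 4224 and 5425 CPM.

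Fibroblast markers moved with this list. Summed over 10 genes they stood at 96.3 and 39.5 CPM in mucin-positive cells and 262 and 78.3 CPM in other tumour cells, with 12 and 3 mucin-positive cells and 78 and 17 others holding at least 20 UMIs of 5 fibroblast collagens and proteoglycans. Without cells that carried markers of another type, the medians of the main lists kept their signs. The list for the duct was different, since its median was -0.75 and -1.54 among all cells but 0.27 in the knockout library without such cells.

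Among genes of the 2 tumour types, the classical list had medians of 0.22 and 0.49 and the basal list -0.57 and -0.58. Of the classical genes, 3 of 24 and 7 of 20 were at least 2-fold higher (1.45% and 2.69% of all genes), and 5 and 2 at least 2-fold lower (7.71% and 7.88%). Cyp3a13, a drug-metabolising enzyme, stood at 14.8 and 15.3 CPM against 6.56 and 5.35 CPM. Of the basal genes, 8 of 22 and 10 of 20 were at least 2-fold lower, and 1 and 2 at least 2-fold higher, beside the same shares of all genes. Krt14, a basal keratin, stood at 14.5 and 11.5 CPM against 44.4 and 33.1 CPM, and Pthlh, a secreted hormone, at 6.95 and 8.20 CPM against 24.0 and 21.6 CPM. The medians of the 2 lists lay on opposite sides of 0, but the control library had more classical genes at least 2-fold lower than higher, and against all other gated tumour cells the classical median was -0.41 and -0.23.

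Transcription factors of the gut endoderm went both ways. Gata6, a factor linked to the classical type, stood at 154 and 157 CPM against 128 and 114 CPM. Foxa2, a forkhead factor, stood at 135 and 126 CPM against 113 and 91.1 CPM, and Hnf4a, a nuclear receptor of the gut and liver, at 55.1 and 44.9 CPM against 49.2 and 34.4 CPM. Barx2, a homeobox factor, stood at 15.8 and 16.4 CPM against 7.63 and 5.50 CPM. Prdm1, a repressor of the fetal gut, stood at 0.393 and 0.421 CPM against 2.21 and 2.93 CPM, and Id3, an inhibitor of helix-loop-helix factors, at 40.9 and 31.98 CPM against 101.9 and 88.6 CPM. Of 28 factors, 5 and 6 were at least 2-fold lower (7.71% and 7.88% of all genes) and 1 and 2 at least 2-fold higher (1.45% and 2.69%), with medians of -0.14 and -0.10.

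Genes for antigen presentation were higher in the mucin-positive cells. All 20 MHC class I genes lay above 0 in the control and 19 of 20 in the knockout library, with medians of 0.31 and 0.42 and none at 2-fold. H2-K1, a classical class I chain, stood at 2871 and 3007 CPM against 2019 and 2056 CPM. H2-Aa, a class II chain, stood at 546 and 795 CPM against 337 and 419 CPM, and the class II list had medians of 0.55 and 0.82. Reads of H2-Q7 and its near-identical neighbours may be split between them, so its 224 and 309.8 CPM against 141 and 193 CPM are uncertain. When every cell was thinned to 5000 UMIs before the rule, the class I medians were 0.15 and 0.20.

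Interferon genes differed between the libraries. The median of 30 type I interferon-stimulated genes was 0.04 in the control library, with 17 above 0, and -0.26 in the knockout library, with 22 below 0. With cells thinned to 5000 UMIs before the rule it was -0.092 and -0.55. Ifi44, one of these genes, stood at 39.6 and 59.2 CPM against 55.7 and 132 CPM, whereas Oasl1 stood at 31.97 and 40.1 CPM against 18.0 and 28.2 CPM. Cxcl9, a chemokine that draws T cells, stood at 237 and 353 CPM against 108 and 175 CPM, with a UMI in 18.4% and 27.2% of the mucin-positive cells. In the knockout library this difference was -0.21 on the log2 scale, in place of 1.01, when cells were thinned before the rule.

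Il33, an alarmin released by damaged epithelium, stood at 103 and 60.5 CPM against 306 and 247 CPM. Glycolysis and hypoxia genes were mostly lower, with 2 genes above 0 in either library and medians of -0.32 and -0.62. Hk2, a glycolytic kinase, stood at 94.4 and 82.4 CPM against 158 and 156 CPM. Vegfa, the vascular growth factor, stood at 84.5 and 67.1 CPM against 129 and 141 CPM. Proliferation genes had medians of -0.20 and -0.47, in cells already limited to few Mki67 and Top2a UMIs.

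**Figure D2:**
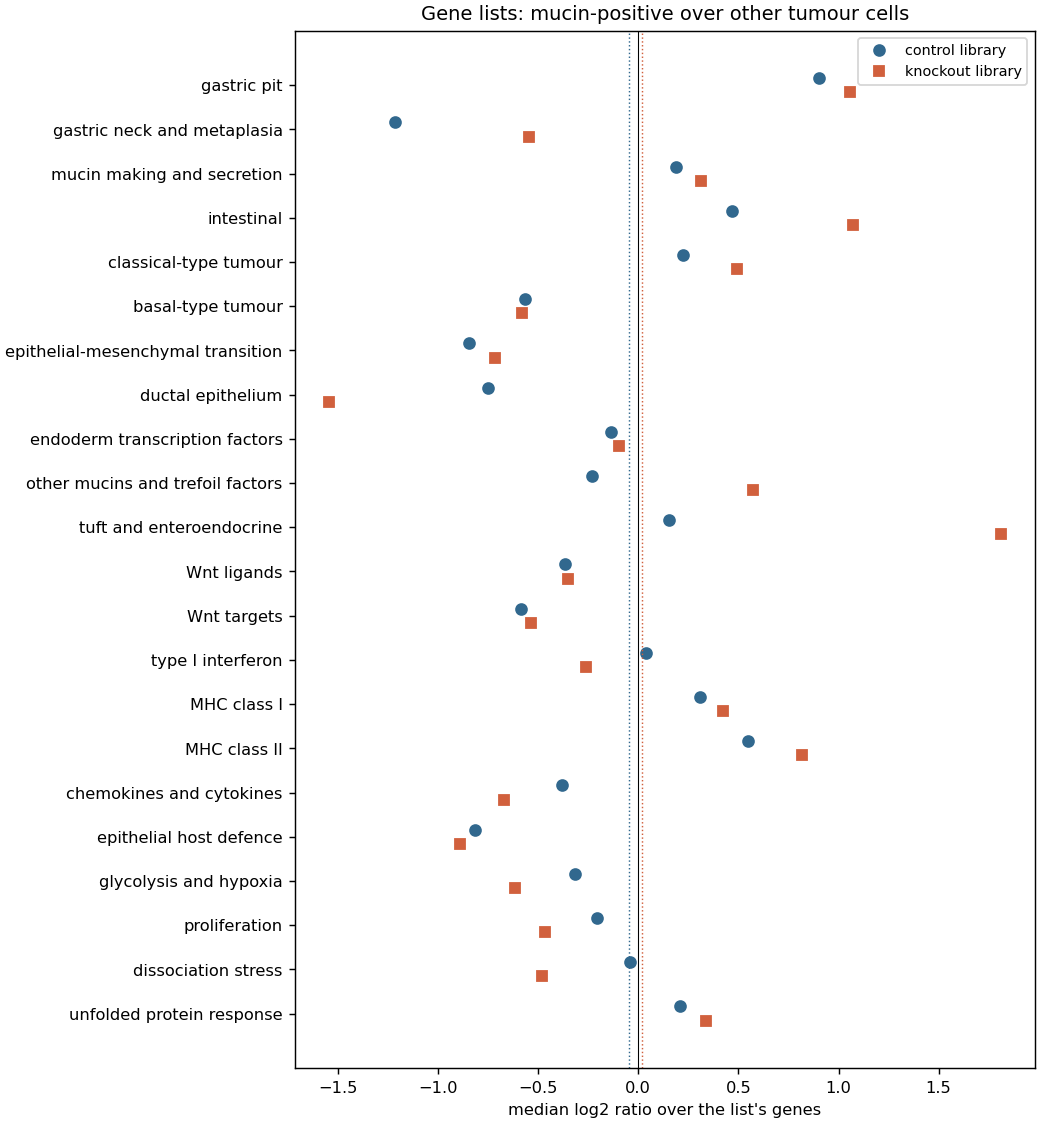
Median log2 ratio over the genes of each list, mucin-positive over other tumour cells, for the control library (circles) and the knockout library (squares), with dotted lines at the medians over all genes. Gastric pit, intestinal and MHC lists lie to the right in both libraries and the lists for neck cells, epithelial-mesenchymal transition and duct to the left.

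Wnt ligands and their targets were considered apart. The 19 Wnt ligand genes summed to 97.4 CPM (94.2 to 101) in the mucin-positive cells of the control library, against 157 CPM (154 to 160) in other tumour cells, and to 75.9 CPM (72.6 to 79.4) against 102 CPM (99.3 to 105) in the knockout library. Wnt4, a secreted ligand, stood at 22.2 and 6.82 CPM against 49.9 and 16.3 CPM, and Wnt5a, a ligand of the noncanonical branch, at 36.1 and 35.3 CPM against 58.6 and 49.8 CPM. Among 23 target genes the summed level was 1705 and 1640.5 CPM against 1707 and 1484 CPM. Their medians were -0.58 and -0.53, with 6 of 19 and 4 of 17 at least 2-fold lower (7.71% and 7.88% of all genes). Sox4, a target in many epithelia, stood at 175 and 146 CPM against 273 and 288 CPM, and Apcdd1, an inhibitor of Wnt receptors, went the other way at 12.2 and 10.8 CPM against 6.56 and 5.44 CPM. The mucin-positive cells thus carried less ligand RNA in both libraries. Of the tested targets, 15 of 19 in the control and 11 of 17 in the knockout library were below 0. The summed target level, in which abundant genes weigh most, was alike in the control and higher in the knockout library.

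The levels changed by degrees with the mucin count of the cell. In the control library Fut2 stood at 5.54 CPM in cells without mucin UMIs, 12.7 with 1 to 9, 26.4 with 10 to 19, 34.7 with 20 to 49 and 64.7 with 50 or more. Piezo2 went from 130 CPM to 67.2, 16.9, 10.8 and 6.12 CPM over the same bins, and Wnt4 from 54.6 to 44.1, 33.3, 21.3 and 13.8 CPM. Gkn2 was different, at 21.0 and 42.5 CPM in the third and the fourth bin and 236 CPM in the last. The knockout library gave the same order of bins for Fut2, Piezo2, Wnt4 and Gkn2. Slurp1, a secreted Ly6-type protein of epithelia, went from 155 to 294, 434, 643 and 751 CPM in the control library. Median depth moved with the bins, from 12079 UMIs in control cells without mucin to 17188 in those with 50 or more, and its part in the trend was not tested.

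**Figure D3:**
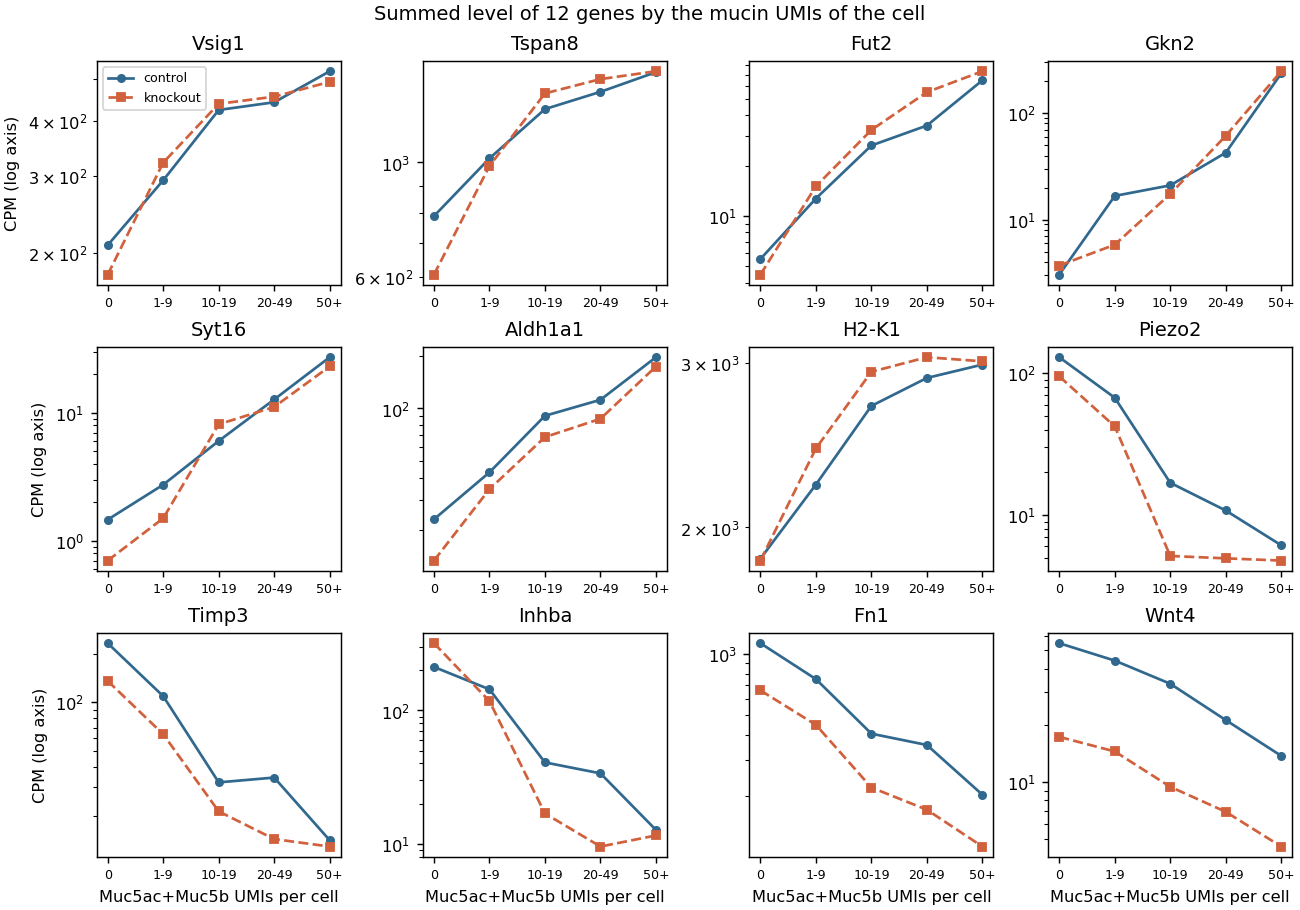
Summed level (CPM, log axes) of 12 genes in tumour cells grouped by Muc5ac and Muc5b UMIs, for the control library (circles) and the knockout library (squares). Vsig1 to H2-K1 climb over most bins and Piezo2 to Wnt4 fall.

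Muc5ac-leaning and Muc5b-leaning cells were then set against each other, as 270 against 1390 cells in the control and 184 against 934 in the knockout library. The gastrokines lay on the Muc5ac side. Gkn2 stood at 502 and 549 CPM in Muc5ac-leaning cells and at 16.6 and 11.04 CPM in Muc5b-leaning cells, and Gkn1 at 45.8 and 39.0 CPM against 1.32 and 0.679 CPM. The pit list had medians of 1.07 and 0.85, with 7 of 13 and 5 of 12 genes at least 2-fold higher, beside 2.22% and 2.01% of all genes. The gastrokine RNA of the mucin-positive cells thus lay mostly in the minority that leaned to Muc5ac. It came from few cells. Over all mucin-positive cells, the 10 highest held 52.4% and 48.4% of the Gkn2 UMIs, and 1 cell held 36.0% and 33.7% of those of Gkn1. Which arm these cells belonged to is not given here.

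Vsig1 and Tspan8 did not divide in that way. Vsig1 stood at 506 and 455 CPM against 432 and 444 CPM, and Tspan8 at 1410.4 and 1372 CPM against 1334 and 1428 CPM. Stc1, a secreted glycoprotein hormone, lay on the Muc5b side, at 22.1 and 27.6 CPM against 69.5 and 70.6 CPM. Ifitm1, an interferon-induced membrane protein, stood at 83.4 and 82.1 CPM against 379 and 388 CPM, and Igfbp7, a secreted binding protein of growth factors, at 124 and 78.9 CPM against 369 and 313 CPM. At least 2-fold lower were 3.97% and 3.04% of all genes.

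Hypoxia genes also parted. All 25 tested glycolysis and hypoxia genes were above 0 in either library, with medians of 0.75 and 0.54. At least 2-fold higher in Muc5ac-leaning cells were 6 and 2 of them, beside 2.22% and 2.01% of all genes. Hilpda, a lipid-droplet protein induced by low oxygen, stood at 235 and 137 CPM against 62.1 and 31.8 CPM. Vegfa stood at 139 and 109 CPM against 71.5 and 57.9 CPM. Type I interferon genes leaned the same way, with 25 of 30 above 0 in either library and medians of 0.39 and 0.36. Havcr2, better known as the immune receptor Tim-3, stood at 16.04 and 12.4 CPM against 3.68 and 3.21 CPM. Macrophage markers had medians of 0.47 and 0.76 in this comparison, with 7 of 9 and 9 of 10 above 0. Of these markers, 2 and 4 were at least 2-fold higher, beside the same shares of all genes, and their part in the immune genes was not tested. The cells were split by the mucins themselves, and the 24 genes in the plot of the mucin arms were chosen for having the same side in both libraries, so these values are a description.

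**Figure D4:**
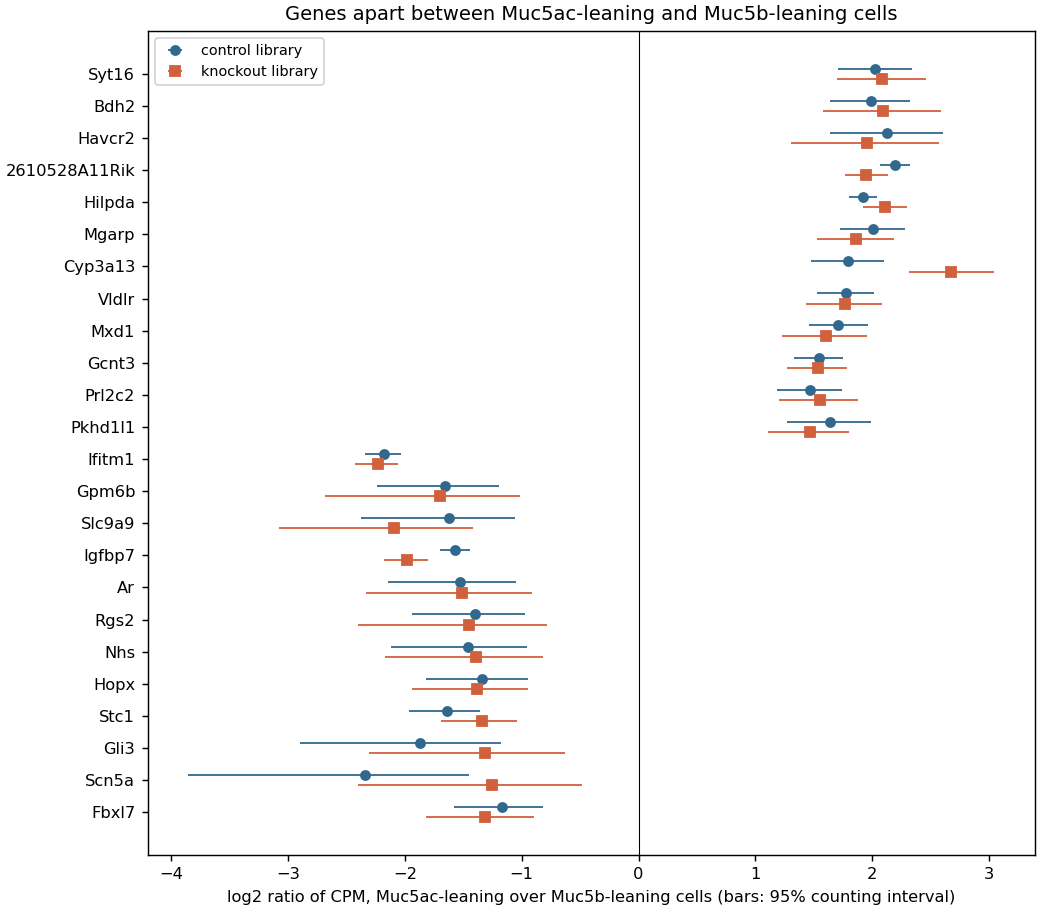
Log2 ratio of CPM in Muc5ac-leaning over Muc5b-leaning cells for 24 genes, 12 higher and 12 lower, in the control library (circles) and the knockout library (squares), with bars for 95% counting intervals. Syt16 to Pkhd1l1 lie above 0 and Ifitm1 to Fbxl7 below 0 in both libraries.

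The comparison of genotypes asked whether tumour cells of this kind differed between the control library and that of mice meant to lack Porcn in myeloid cells. Porcn itself stood at 5.30 CPM (189 UMIs) in the mucin-positive cells of the control library and 4.83 CPM (126 UMIs) in those of the knockout library, and at 2.86 and 0.699 CPM (9 UMIs each) in leukocytes. The tumour cells thus kept the transcript in both libraries. In leukocytes it was lower in the knockout library, with counting intervals of 1.31 to 5.42 CPM in the control and 0.320 to 1.33 CPM in the knockout library. These were leukocytes of all kinds, with few UMIs, so the values are no check of the deletion. With 1 library per genotype, no difference below is tested, and every interval covers counting error only.

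The gastric genes had no single direction between the libraries. Muc5ac stood at 977 and 928 CPM and Muc5b at 1522 and 1427 CPM, but these are levels among cells chosen by those UMIs and compare nothing. Vsig1 had a log2 ratio of 0.00 (-0.03 to 0.04), Tspan8 of 0.06 (0.04 to 0.08), Gkn2 of 0.19 (0.12 to 0.26) and Fut2 of 0.40 (0.29 to 0.50). Anxa10, an annexin of the stomach, went the other way at -0.94 (-1.96 to -0.12), on 41 and 15 UMIs from 24 and 11 cells. For Gkn2, 10 cells held 52.4% and 48.4% of the UMIs, and the share of cells with a UMI was 10.3% and 9.91%. The intervals count UMIs as independent, so for Gkn2 and Anxa10 they are too narrow and the direction is not settled. The pit list had a median of -0.03, with 7 of 14 genes above 0 and none at 2-fold in either direction, beside 1.57% of all 14046 genes higher and 2.45% lower. In other tumour cells its median was -0.26. With every cell thinned to 5000 UMIs before the rule, the median in mucin-positive cells was 0.28. The mucin list had a median of -0.16, with Galnt3, an enzyme that starts mucin sugar chains, at 5.89 and 3.29 CPM and Xbp1, a secretory stress factor, at 81.4 and 60.1 CPM.

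Wnt4 was lower in the knockout library, at 6.82 CPM against 22.2 CPM in the control library, with a log2 ratio of -1.70 (-1.95 to -1.47). It was lower in other tumour cells too, at -1.61 (-1.72 to -1.50), and stood at 11.7 and 3.26 CPM in leukocytes, where free RNA from tumour cells cannot be told apart from a leukocyte transcript. None of the 8 tested Wnt ligands lay above 0, but Wnt5a stood at -0.03 (-0.16 to 0.09) and Wnt7b at -0.22 (-0.38 to -0.07). Rnf43, a target that restrains Wnt receptors, stood at 9.20 CPM in the control and 3.83 CPM in the knockout library. The 14 tested Wnt targets had a median of -0.33 in mucin-positive cells and the 19 tested in other tumour cells one of -0.41, while all genes had -0.05 and -0.12. Axin2, the target most often used as a readout, had 68 and 42 UMIs and a ratio of -0.23 (-0.84 to 0.33).

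Type I interferon genes were higher in the knockout library, with 28 of 30 above 0 and a median of 0.31, none at 2-fold. In other tumour cells 29 of 30 were above 0, the median was 0.68, and 8 were at least 2-fold higher, beside 2.52% of all genes higher and 3.73% lower. Ifi27l2a, an interferon-stimulated gene, stood at 120.3 CPM in the control and 232 CPM in the knockout library, and Usp18, which dampens interferon signalling, at 29.5 and 46.6 CPM. Summed over 30 genes the list went from 5776 CPM (5751 to 5801) to 6881 CPM (6849 to 6913) in the mucin-positive cells, and from 5933 CPM (5915 to 5951) to 8796 CPM (8770 to 8821) in other tumour cells. The shift had the same direction in both kinds of cell and was smaller in the mucin-positive ones, a difference that was not tested.

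MHC genes were higher as well. The class I list had a median of 0.24, with 17 of 20 genes above 0, and the class II list a median of 0.50, with 8 of 8 above 0. H2-Aa stood at 546 CPM in the control and 795 CPM in the knockout library, while in leukocytes it stood at 2305 and 1656 CPM. Tap1, a peptide transporter, stood at 126 and 159.6 CPM. Cxcl9 stood at 237 and 353 CPM and Cxcl10, a related chemokine, at 169.5 and 287 CPM. Macrophage marker genes summed to 72.2 CPM in the control cells and 63.6 CPM in the knockout cells. Yet 7 of the 10 tested were above 0, with a median of 0.40, and 4 were at least 2-fold higher, beside 1.57% of all genes. The part of these markers in the class II values was not tested.

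Stress genes of the endoplasmic reticulum were lower in the knockout library, with 3 of 27 above 0 and a median of -0.24, and of -0.36 in other tumour cells. Hspa5, its main chaperone, stood at 861 CPM in the control and 605 CPM in the knockout library. Hspa1a, a heat-shock protein that responds to handling, stood at 52.1 and 97.4 CPM and Nr4a1, an immediate early gene, at 4.99 and 2.95 CPM. The pooled libraries were handled apart, so handling and genotype cannot be told apart.

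Genes of matrix and fibroblasts were lower. Of the 30 epithelial-mesenchymal transition genes, 10 were at least 2-fold lower (2.45% of all genes) and the median was -0.23. Fn1 stood at 322 CPM in the control and 165 CPM in the knockout library. Spp1, encoding osteopontin, stood at 2341 and 1222 CPM, and in other tumour cells at 4652 and 2591 CPM. Thbs1, an adhesive matrix protein, stood at 9.17 and 3.22 CPM. Col1a1 stood at 17.7 and 3.64 CPM, beside fibroblast markers that summed to 96.3 and 39.5 CPM, and their part in it was not tested.

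By the rule that named genes, the 10 genes furthest higher in the knockout library were all acinar digestive enzymes, among them Pnlip, the pancreatic lipase, at 0.477 and 7.85 CPM. These genes were also higher in the other groups. Summed over 14 acinar genes, the level was 25.04 and 69.5 CPM in mucin-positive cells, 18.4 and 59.9 CPM in other tumour cells and 13.96 and 109 CPM in leukocytes, and 4 of the 10 genes belong to the rule. The 10 furthest lower were Kcnh2, S100a9, Adamts1, Wnt4, Syt8, Cbr3, Fjx1, Cnksr2, Thbs1 and Basp1. S100a9, a neutrophil protein, stood at 6.53 and 1.42 CPM in the mucin-positive cells, beside 13694 and 1269.8 CPM in leukocytes, and the part of leukocyte RNA in it was not tested.

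A further look, chosen after the values were seen, took the genes at least 2 times above the leukocyte level in the knockout library. Thsd7b, a thrombospondin-domain protein, then stood at 2.78 and 7.77 CPM, and Ppp2r2b, a phosphatase subunit, at 31.4 and 59.1 CPM. Gbp10, an interferon-induced GTPase, stood at 15.1 and 28.9 CPM. In other tumour cells their log2 ratios were 0.56, 0.37 and 0.59, all in the same direction and smaller than the 1.48, 0.91 and 0.94 in mucin-positive cells, differences that were not tested.

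**Figure D5:**
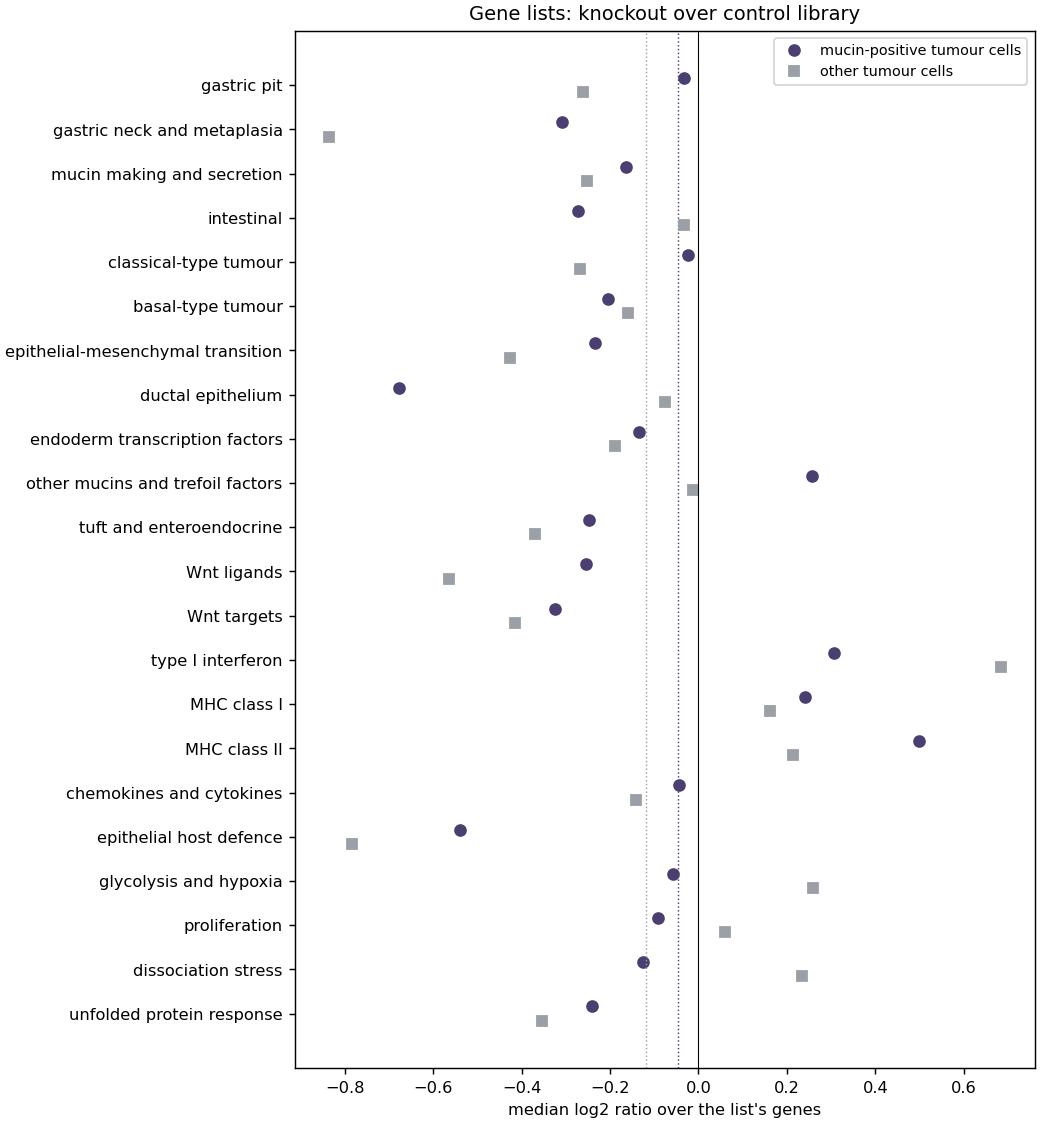
Median log2 ratio of the knockout over the control library for each gene list, in mucin-positive tumour cells (circles) and in other tumour cells (squares), with dotted lines at the medians over all genes. Type I interferon and MHC lists lie to the right in both kinds of cell, and the gastric pit list of the mucin-positive cells lies at -0.03.

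Markers of other cells were mostly low but not absent, and the mesothelial list was not low. Its 7 genes summed to 257 CPM in the mucin-positive cells of the control library and 243 CPM in those of the knockout library. They summed to 273 and 185 CPM in other tumour cells and to 13.6 and 14.6 CPM in leukocytes. The source of this RNA was not tested. The T and NK genes summed to 1.35 CPM in the mucin-positive cells of the control library and 6.36 CPM in those of the knockout library, with Klrb1c at 0 in both and Cd4 and Ncr1 at 0 in the control library. The B and plasma genes summed to 3.34 and 7.51 CPM, with Pax5 at 0. Neutrophil genes summed to 13.4 and 2.37 CPM. The islet genes summed to 2.27 CPM in the control and 788 CPM in the knockout library, where 1 cell held 14309 of the 14475 Ins2 UMIs. The libraries shared 46 cell barcodes among their cells.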

How the data were processed

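Single cells of pooled tumours were profiled in 1 library per genotype with 10x Genomics 3′ chemistry. The deposited files hold raw UMI counts per gene and cell, with 32285 genes, per the file headers. The header names Cell Ranger 8.0.0, whereas the submitters' processing notes name Cell Ranger 3.1.3 and mm10, and this difference was not settled. Libraries held 13766 and 12251 barcodes.

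UMIs were summed over the cells of a group, scaled to CPM and compared as log2 ratios with a pseudocount of 1 UMI, for genes with at least 20 UMIs. Intervals are exact at 95% (Poisson for levels, conditional binomial for ratios, Clopper-Pearson for shares) and cover counting error only, since each genotype is 1 sample, so no test was made. A gene was called at 2-fold. Leukocytes had at least 3 Ptprc UMIs. Doublets were kept, as the rule has no such step. Scrublet in scanpy 1.11.5 marked 1.27% of the control cells and 3.16% of the knockout cells, 7 and 11 of them mucin-positive, and its removal was an alternative. The scripts were tested on simulated data. Python 3.11.15, numpy 2.4.6, scipy 1.17.1 and pandas 2.3.3 were used.

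Named genes had at least 50 UMIs, no single cell with over 10% of them and, between cell groups, a UMI in at least 10% of cells. The 15 highest and 10 lowest over other tumour cells, by the smaller change of the 2 libraries, and the 10 furthest from 0 in each direction between genotypes were named. Further examples came from the gene lists. A few genes that these choices reached are not reported here. The cells and lists were chosen with earlier results of these data known. The comparisons of the mucin arms and with intestinal-type cells, and 12 genes in each direction of the former, were added after seeing the data.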

Additional observations from a re-analysis of the deposited data

Results flagged for a closer look

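These genes had ratios on opposite sides of 0 in the 2 settings compared, each with a counting interval that lay beyond 0.25 on the log2 scale, and in no case was the difference itself tested. Values are log2 ratios.

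Of the knockout over the control library, Inhba, the activin A subunit, stood at -1.26 in mucin-positive cells and 0.44 in other tumour cells, with at most 10.1% of its UMIs in 1 cell. 2610528A11Rik stood at -0.42 and 0.51, with at most 3.97%. Ctss, a cathepsin of antigen-presenting cells, stood at 0.68 and -0.86, with at most 15.8%.

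Other cases rested on single cells. Cldn3, a tight junction gene, stood at -3.17 and 1.28, with up to 77.6% of the UMIs of a group in 1 cell. Epcam stood at -2.83 and 1.12, with up to 79.2%. Onecut1, a duct transcription factor, stood at -3.22 and 0.70, with up to 66.7%. Ambp stood at -2.99 and 0.75, with up to 40% in 1 cell. Tff2 stood at 0.79 and -2.44, with up to 61.4%.

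Of mucin-positive over other tumour cells, Tff2 stood at -1.94 in the control and 1.28 in the knockout library, with up to 61.4% in 1 cell. Acta2, the smooth muscle actin, stood at 0.78 and -0.90, with up to 63.5%.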

How the results depend on the processing

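No paired analysis was possible because each genotype is 1 pooled library. Values are log2 ratios unless given as percent. A share was held against its Clopper-Pearson interval, a gene against its counting interval and a list median against the order-statistic interval over its genes, which reflects spread among genes and not replicate error and is wide. By that measure, 391 of 407 main list medians under an alternative stayed within the interval, 13 went beyond it and 3 turned. Without regard to it, 19 of the 407 changed sign and 45 shifted by at least 0.25. Of named genes, 2220 of 3033 values stayed within, 800 went beyond and 13 turned. Of other list medians, 386 of 407 stayed within, 20 went beyond and 1 turned. Of the 2 comparisons added after seeing the data, 330 of 396 values stayed within, 66 went beyond and 4 changed sign.

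With all other gated tumour cells as the comparison, medians in the control library were -1.35 for intestinal, -0.41 for classical, -0.14 for glycolysis and -0.069 for mucin making genes. In the knockout library they were -0.48 for pit, -1.72 for intestinal and -0.23 for classical genes. Gkn1 was then -0.76 in the control and -1.05 in the knockout library, Tff1 -1.38 and -0.50, and in the knockout library Ctse was -0.53 and Tff2 -2.32. With other cells at 0 mucin UMIs, MHC class I in the knockout library was 0.55.

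The share of mucin-positive cells was 31.98% in the control and 34.4% in the knockout library at a threshold of 5 UMIs, 17.6% and 19.2% at 20, and 22.2% and 23.02% per 10000 UMIs, where basal genes between genotypes stood at -0.046. Thinning to 5000 UMIs before the rule, which also loosens the limits on Ptprc and Pdgfra, gave 19.4% and 19.1% with a ratio of 0.987. Over other tumour cells, interferon was then -0.092 and -0.55, MHC class I 0.15 and 0.20, intestinal genes in the knockout library 1.89, Acta2 in the control library -3.09 and Cxcl9 in the knockout library -0.21. Between genotypes, mucin making was -0.059, basal genes 0.067 and Birc5 0.021.

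With the gate at full depth and only mucin thinned, an alternative added after seeing the data, the shares were 22.8% and 23.6%, basal genes between genotypes -0.0499, and Tff2 was -0.81 over other cells in the knockout library and -0.95 between genotypes. Without cells carrying markers of other types, also added later, Krt7 in the control library was 0.55, Acta2 there -1.47, and the duct list in the knockout library 0.27. The cause of these changes was not tested.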
